A study of Drosophila melanogaster with 12 samples.

Results

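The RNA of control *Drosophila* heads was examined here for its most abundant genes and for the way each gene's output was divided among its annotated isoforms. The heads came from *elav-Gal4*/+ flies, which carry the pan-neuronal *elav* driver and no UAS transgene, at day 10 of adulthood. Males and females were used in equal number. Of the 12 samples of the series, the 3 nanopore libraries of this genotype were used (Control 1, Control 2 and Control 3), each made from 500 heads by direct RNA sequencing of polyA-enriched RNA. Genes were kept where their level, averaged over these 3 libraries, reached 20 TPM (the relative abundance unit of the table, which sums to 1000000 in each library), which left 5021 of 13970 listed genes. There is 1 group and no comparison between groups, so no test is given, and each value is set against the spread between the 3 libraries (SD, n = 3). All 3 libraries carry the driver, and flies without it were not used here.

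In direct RNA sequencing a native RNA molecule passes through a protein pore from its polyA tail toward its 5′ end, so that each read stands for a single molecule. A TPM value is therefore the share of reads assigned to an isoform, scaled to a fixed total, and is not divided by length. The paper proposes that fragmentation and pore blocking may bias its reads toward the 3′ end, above all for long transcripts. Levels of short and long genes are compared here with that limit. Isoforms of a gene arise from alternative promoters, alternative splicing and alternative polyadenylation, and those that differ only in untranslated regions encode the same protein. A fly head holds compound eyes, brain, glia, fat body, muscle, cuticle and the organs of smell and taste. Neurons of the fly are known for transcripts with very long 3′UTRs and for genes with many splice forms.

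The value of a single read was 1.10, 1.32 and 1.75 TPM in Controls 1, 2 and 3, which corresponds to 910697, 759740 and 573000 assigned reads. The level of 3 reads was taken as a floor for detection and came to 3.29, 3.95 and 5.24 TPM. The shallowest library, Control 3, thus sets the limit for an isoform that must be seen in every library. The floors are set by read counts alone, and each ± value is an SD between libraries, which covers every source of difference between them. The median coefficient of variation between libraries was 6.30% for genes at 1000 TPM or more, where counting error alone gives 2.35%, and 18.9% for genes at 20 to 100 TPM, where counting error gives 19.4%. Isoform shares of the lower genes are accordingly limited by depth.

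A small number of genes supplied much of the RNA. The 152 genes at 1000 TPM or more held 48.9% ± 1.28 (SD, n = 3) of all TPM, the 1090 genes at 100 to 1000 TPM held 29.5% ± 0.61, and the 3779 genes at 20 to 100 TPM held 16.4% ± 0.79. By mean level, 164 genes together reached 50% of the total and 3249 genes reached 90%. The 20 most abundant genes held 17.9%, 19.5% and 19.97% of TPM in Controls 1, 2 and 3. At the threshold, *AspRS-m* lay just inside at 20 TPM and *oaf* just outside at 19.9999 TPM. Abundant genes had short transcripts, and whether a loss of long molecules in sequencing contributes was not tested. The median annotated length, weighted by isoform level, was 779 nt for genes at 1000 TPM or more, 1403 nt at 100 to 1000 TPM and 1850 nt at 20 to 100 TPM, and the median 3′UTR lengthened from 109 to 188 and 262 nt over the same classes.

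The most abundant gene was *ninaE*, which encodes Rh1, the opsin of the outer photoreceptors (FBgn0002940, chromosome 3R, 19886255 to 19888206, minus strand, Release 6 assembly). Its level was 22549, 25227 and 22986 TPM in Controls 1, 2 and 3, and it has a single listed isoform of 1588 nt in 5 exons. The visual arrestins, which bind activated rhodopsin, followed within the leading 14 genes, with *Arr2* at 8247 ± 573 TPM and *Arr1* at 5714 ± 406 TPM. The minor opsins formed an order of their own. *Rh4* stood at 1222 TPM, *Rh3* at 604 TPM, *Rh6* at 447 TPM, *Rh2* of the ocelli at 222 TPM and *Rh5* at 160 TPM. Each of these neighbours in the order was separated in all 3 libraries. The 29 genes of the phototransduction and rhabdomere list, of which 27 reached 20 TPM, held 4.48% ± 0.29 of TPM.

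The yolk protein genes, which are expressed in the fat body of females, also stood among the leading genes. *Yp3* (chromosome X, 13759546 to 13761547) measured 15226, 19356 and 16707 TPM, *Yp1* 10624, 11559 and 9187 TPM, and *Yp2* 8010, 11229 and 9642 TPM. Control 2 was the highest library for all 3 genes. Other secreted products of the fat body were lower, with the iron carrier gene *Tsf1* at 1670 TPM and the lipoprotein gene *apolpp* at 1306 TPM. The fat body and haemolymph list held 3.87%, 4.74% and 4.01% of TPM in the 3 libraries.

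The mitochondrial genome supplied 5 of the 7 most abundant genes. They encode subunits of cytochrome c oxidase (*mt:CoI*, *mt:CoII*, *mt:CoIII*), of ATP synthase (*mt:ATPase6*) and cytochrome b (*mt:Cyt-b*). *mt:CoII* was at 15645 ± 790 TPM and *mt:ATPase6* at 14478 ± 903 TPM, with the 3 libraries close together. *mt:CoI* was at 9322, 10697 and 18691 TPM, *mt:Cyt-b* at 9685, 9902 and 14256 TPM, and *mt:ND1*, a subunit of complex I, at 466, 462 and 1562 TPM. Control 3 was the high library for these genes and the other two libraries lay near each other. The 13 mitochondrially encoded genes together held 6.91%, 6.74% and 9.13% of TPM. Within the list, *mt:ND6* (1020, 1004 and 775 TPM) and *mt:ATPase6* were lowest in Control 3, and every other member was highest there. What sets Control 3 apart was not tested.

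**Figure D1:**
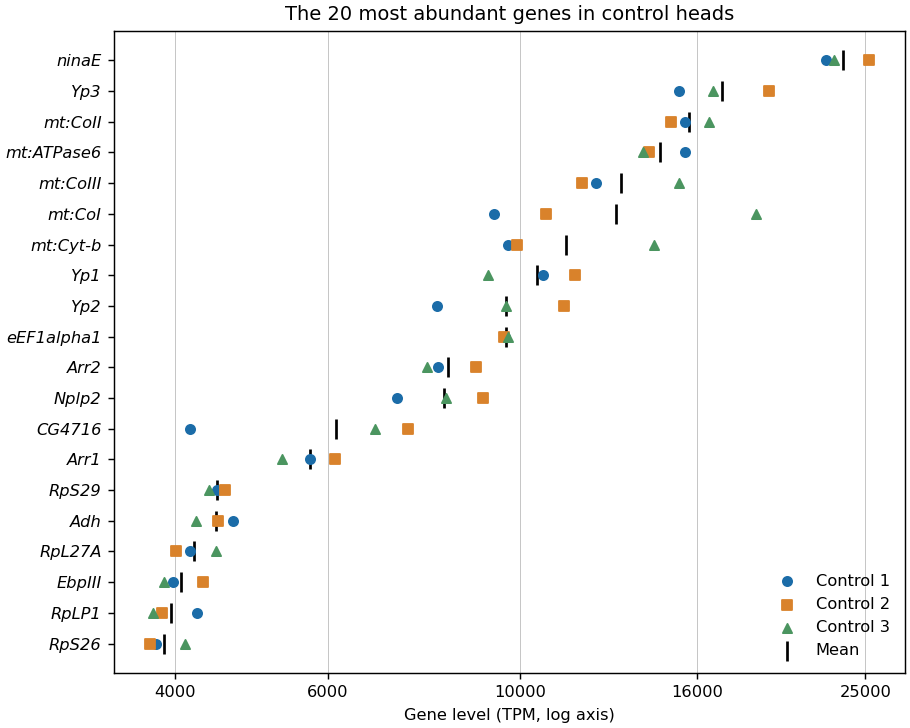
Level of the 20 most abundant genes in each control library (TPM, log axis), with points for the 3 libraries and a bar for their mean. *ninaE* leads in every library at 22549 to 25227 TPM, Control 3 stands apart for *mt:CoI* at 18691 TPM, and Control 1 stands apart for *CG4716* at 4155 TPM.

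Genes of translation made up the largest functional share. The 92 ribosomal protein genes held 22.0%, 21.0% and 21.7% of TPM, and 84 of them reached 20 TPM, with a median of 2748 TPM against 46.8 TPM over all genes at that level. *RpS29* and *RpL27A* led the list at 4469 and 4208 TPM. Paralogs known or named as variants of another ribosomal protein gene were low, for example *RpS19b* at 8.55 TPM and *RpL10Aa* at 7.15 TPM. Reads of near-identical paralogs can be divided between them, so these low levels are uncertain. The elongation factor gene *eEF1alpha1* was among the steadiest of the 20 leading genes at 9615, 9586 and 9679 TPM. The 80 nuclear genes of the respiratory chain held 2.81% ± 0.074 of TPM, led by the ATP synthase subunit genes *ATPsynC* (2140 TPM) and *ATPsynbeta* (1243 TPM). The 12 genes of glycolysis all passed 20 TPM and held 0.53% ± 0.026.

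Genes of antimicrobial peptides and of the odorant-binding protein family formed a further layer. The 22 antimicrobial and Bomanin genes held 1.20% ± 0.12 of TPM and 20 of them passed 20 TPM. Among them *Mtk*, encoding metchnikowin, was at 1501, 2800 and 2586 TPM, and the diptericin gene *DptB* at 432, 860 and 817 TPM, so that Control 1 was the low library. The Bomanin gene *BomS1* went the other way, at 962, 540 and 534 TPM. Odorant-binding proteins, which carry ligands in the fluid around olfactory neurons, held 0.82% ± 0.057, and *Obp99c* (1976 TPM) and *Obp44a* (1115 TPM) led the 21 of 51 that passed 20 TPM. The neuropeptide-like precursor gene *Nplp2* was at 8161 ± 926 TPM, *Adh*, encoding alcohol dehydrogenase, at 4458 ± 216 TPM, and *EbpIII* at 4059 ± 221 TPM. *CG4716* was at 4155, 7427 and 6806 TPM, with Control 1 well below the others.

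Neuronal and glial markers were present at far lower levels. Of 11 pan-neuronal markers found in the table, 7 passed 20 TPM, led by the synaptic vesicle gene *nSyb* at 358, 313 and 269 TPM and the sodium pump subunit gene *nrv3* at 182, 171 and 147 TPM. The defining marker *elav* was listed at 0, 2.63 and 0 TPM and *futsch* at 2.20, 1.32 and 1.75 TPM, both under the floor in every library. The list held 0.096%, 0.090% and 0.071% of TPM, in the same order as the depth of the libraries. Of 13 glial markers 8 passed 20 TPM, led by the glutamine synthetase gene *Gs2* (747 TPM) and the trehalose transporter gene *Tret1-1* (402 TPM), while *repo* was at 21.5 TPM and *gcm* under the floor. Muscle genes held 0.27% ± 0.029, and haemocyte markers 0.015% to 0.023%, with *He* under the floor. In such bulk RNA, fewer cells of a type and less RNA per cell cannot be told apart. The 7 pan-neuronal markers that passed 20 TPM also had long transcripts. Their median length weighted by isoform level was 6287 nt, beside 1703 nt over all genes that passed. Whether a loss of long molecules in sequencing contributes to the low level of neuronal markers was not tested. Each of the photoreceptor, neuronal, glial and fat body lists thus had detected members in the tissue labelled head. The members under the floor in every library were *elav*, *futsch*, *gcm*, the larval storage protein genes *Lsp1alpha* and *Lsp1gamma*, *Fbp1* and the phototransduction list gene *ninaD*.

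**Figure D2:**
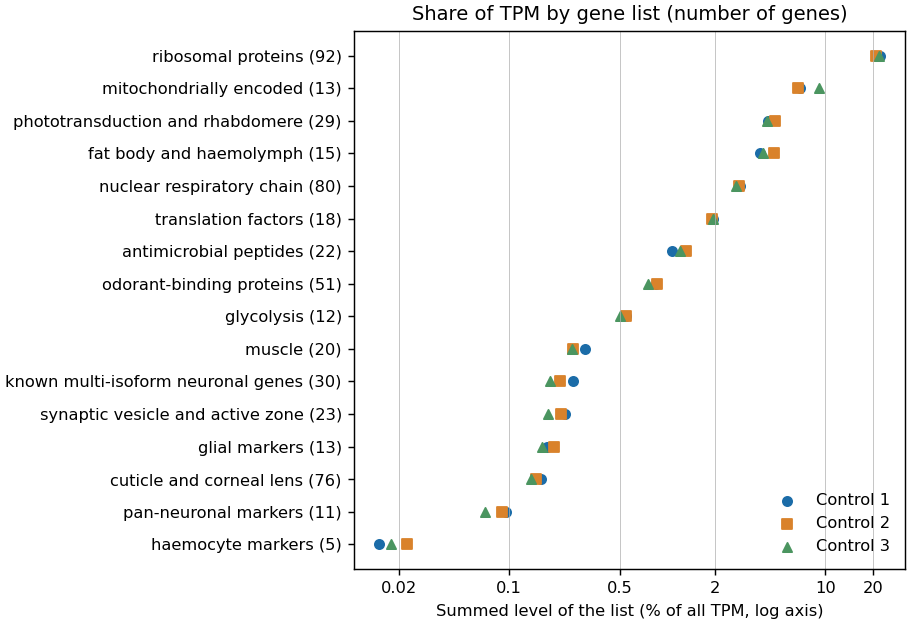
Summed level of each gene list as a percentage of all TPM (log axis), with the number of genes found in the table in parentheses and a point for each control library. Ribosomal proteins lead at 21.0% to 22.0%, the mitochondrially encoded list is highest in Control 3 at 9.13%, and the pan-neuronal markers lie between 0.071% and 0.096%.

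The number of isoforms detected per gene was set beside the number listed. The 5021 genes have 14583 listed isoforms, with a mean of 2.90, a median of 2 and a maximum of 31 per gene. Of these isoforms 8101, or 55.6%, were at or above the floor of 3 reads in every library. The median gene had 1 detected isoform. In all, 2875 genes (57.3%) had 1 detected isoform, 1335 (26.6%) had 2, 398 (7.93%) had 3, and 57 (1.14%) had 6 or more. Of these genes 1678 have a single listed isoform. Among the 3343 with several, 1207 (36.1%) had 1 detected isoform and 1068 (31.9%) had every listed isoform detected. The complexin gene *cpx*, whose product acts in synaptic vesicle release, had the most, with 15 detected of 21 listed. A further 130 genes had no isoform that passed the floor in all libraries although the gene total reached 20 TPM. In 88 of these, isoforms with identical values passed once their values were summed.

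The number of detected isoforms followed depth and level. Counted in a single library, the mean number per gene was 2.02 in Control 1, 1.87 in Control 2 and 1.71 in Control 3, which is the order of their depth. By the paper's metrics, Control 1 also had the lowest percentage of full-length reads. For that library, depth and the completeness of reads cannot be told apart. Among the 3343 genes with at least 2 listed isoforms, the mean number detected was 2.67 at 1000 TPM or more, 2.61 at 100 to 1000 TPM, 2.06 at 50 to 100 TPM and 1.50 at 20 to 50 TPM, while the listed number was between 3.22 and 3.97 in each class. Genes with 10 or more listed isoforms had 2.92 detected on average. An isoform under the floor is not shown to be absent, and in a gene near 20 TPM the floors of 3.29 to 5.24 TPM are a sizeable part of the gene's level.

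Within these 3343 genes, the leading isoform (the one with the highest mean TPM) held a median of 60.1% ± 0.45 of the gene's TPM (SD of the library medians, n = 3). The leading isoform held at least 90% in 788 genes (23.6%), at least 99% in 293 genes (8.76%), and less than 50% in 971 genes (29.0%). The effective number of isoforms, which is the exponential of the Shannon entropy of the shares and equals the number of isoforms when all are equal, had a median of 2. The share of a typical gene repeated well, with a median SD of 3.68 percentage points between libraries, and 612 genes (18.3%) had an SD above 10 points.

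The distribution of leading shares had peaks to which equal values contributed. The bin at 32% to 34% held 107 genes, and 30 once isoforms within 5% of each other in every library were summed. The bin at 50% to 52% went from 371 to 121 genes and stayed above its neighbours. The peak at 98% to 100% grew from 385 to 780 genes. In 664 of the 3343 genes (19.9%) the 2 leading isoforms had exactly the same TPM in each of the 3 libraries, and in 27 more they differed by at most 5% in every library. The yolk protein gene *Yp1* is an example. Its isoforms RA and RB each measured 5312, 5780 and 4593 TPM, and they share the 3′ end and the coding sequence, RA being 1570 nt and RB 1611 nt long. In *eEF1alpha1* (chromosome 2R, 11891135 to 11895762) the isoforms RE, RD and RA held 33.2%, 33.1% and 33.1%, share a 3′UTR of 554 nt and differ at the 5′ end. The near-equal group was made of very abundant genes, with a median of 2521 TPM, and held *Nplp2*, *RpS7* and *RpL10*.

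The lengths and 3′ ends of the leading pair set the genes with identical values apart from those that differed by more than 25%. Where the 2 leading isoforms were identical in value, their annotated lengths differed by a median of 32.5 nt, or 1.22% of the longer one, and in 99.8% of the genes their 3′ ends lay within 50 nt. Where they differed by more than 25% in at least 1 library, the median difference in length was 229.5 nt, and 51.6% had 3′ ends within 50 nt. Coding sequences were the same in 58.1% and 57.0% of the genes of these classes, and 5′ ends lay within 50 nt in 66.0% and 61.2%. Where the difference was 5% to 25%, 84.3% had 3′ ends within 50 nt. NanoCount assigns a read that fits several isoforms in part to each of them, and direct RNA reads start at the 3′ end and often stop short of the 5′ end. The cause of the equal values was not tested.

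Summing isoforms of equal value changed the picture of dominance. With identical isoforms summed, the median leading share rose from 60.1% to 78.4%, genes at 90% or more went from 788 to 1245 (37.2%), and genes under 50% fell from 971 to 495 (14.8%). With isoforms that lay within 5% of each other in every library summed, a choice made after these values were seen, the median was 79.4%. The effect of the looser rule differed between classes of gene level. In the 112 genes at 1000 TPM or more, the median leading share was 51.1% with isoforms separate, 72.0% with identical values summed and 97.2% with values within 5% summed, and the number of genes in which 1 isoform, or 1 set of near-equal isoforms, held at least 90% went from 38 to 65. In the 760 genes at 100 to 1000 TPM the same medians were 60.2%, 74.6% and 75.6%, in the 796 genes at 50 to 100 TPM they were 61.7%, 77.7% and 77.8%, and in the 1675 genes at 20 to 50 TPM they were 58.8%, 80.0% and 80.0%. Counting error of the gene total alone has a median of 19.4% at 20 to 100 TPM. Why the looser rule changed mainly the most abundant class was not tested.

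**Figure D3:**
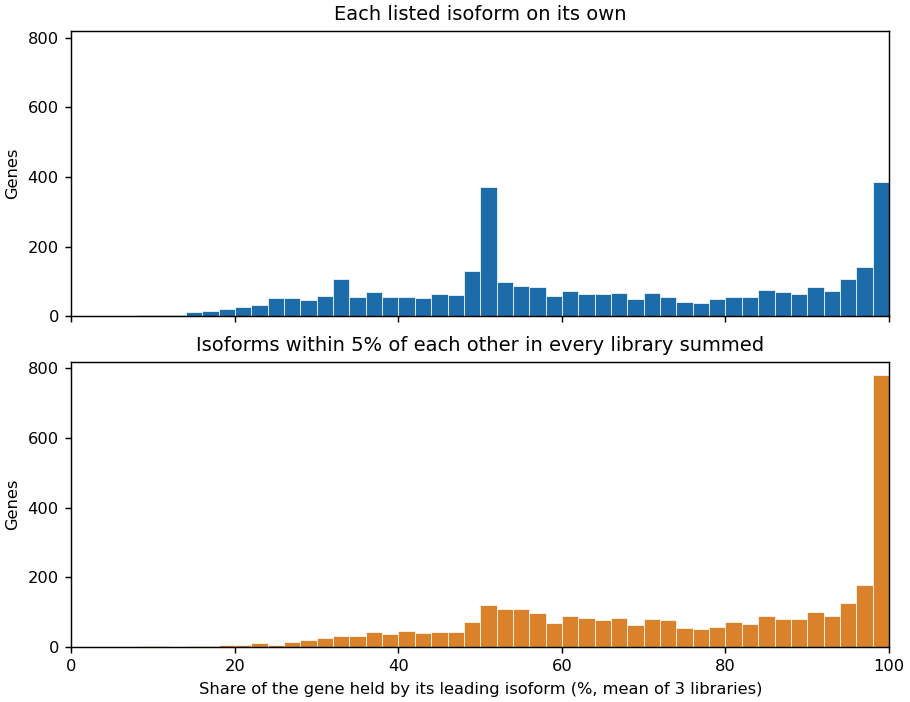
Number of genes by the share of the gene's TPM held by its leading isoform (percent, mean of 3 libraries, bins of 2 points), for 3343 genes with at least 2 listed isoforms. With isoforms taken separately (upper panel) peaks stand near 33%, 50% and 100%, and with isoforms that agree within 5% summed (lower panel) the peak near 50% shrinks and the bin at 98% to 100% grows.

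**Figure D4:**
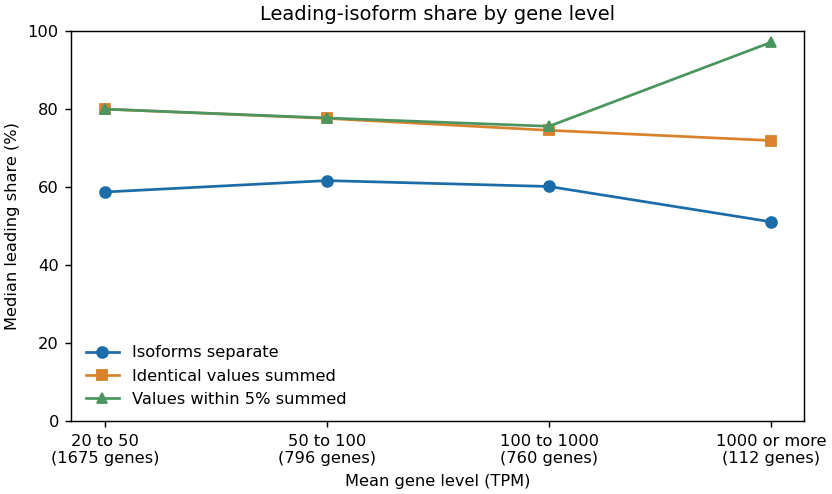
Median share held by the leading isoform (percent) in 4 classes of gene level, for isoforms taken separately, with identical values summed, and with values within 5% summed. At 1000 TPM or more the medians are 51.1%, 72.0% and 97.2%, and at 20 to 50 TPM they are 58.8%, 80.0% and 80.0%.

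Some of the most abundant genes with several listed isoforms were carried by a single form. At 1000 TPM or more, with isoforms separate, the leading isoform held at least 90% in 38 of 112 such genes (33.9%). Of the 10 most abundant with a leading share of at least 99%, 8 encode ribosomal proteins, the others being *Yp3* and *Arr1*. Ribosomal protein genes are common at this level, with a median of 2748 TPM, and also fill much of the opposite group below. *Yp3*-RA held 99.9% in every library, and the RB form with a 3′UTR of 549 nt instead of 169 nt was at 12.1, 17.1 and 19.2 TPM, above the floor of each library. *RpLP1*-RA held all of its gene's TPM, and the second isoform was listed at 0 in all 3 libraries. *RpS3A*-RA on chromosome 4 held 99.9%. *Arr1*-RA held 99.8% ± 0.059.

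Conversely, the 10 most abundant genes in which no isoform reached 50% included *eEF1alpha1*, *Nplp2*, *RpL27A*, *RpS26*, *RpS7*, *RpL7A*, *RpS19a*, *RpL10* and *RpL27*. In *eEF1alpha1*, *Nplp2*, *RpL27A*, *RpS26*, *RpS7* and *RpL10* the 2 leading isoforms were within 5% of each other in every library, and *RpL7A*, *RpS19a* and *RpL27* had leading pairs within 10%. *RpS26* illustrates the group. Its isoforms RA and RB held 49.7% each, and the RC form with a longer 3′UTR (683 nt against 211 nt) held 0.52%. Of the genes named, *Nplp2* has 2 annotated coding sequences and each of the others has 1. The most abundant genes whose leading isoform differed between libraries included *eEF1alpha1*, *Nplp2*, *RpS7* and *RpL10*, which belong to the same group. Over all 3343 genes, the leading unit differed between libraries in 591 (17.7%) after identical values were summed.

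Whether a lead was stable was looked up in a library that had not chosen it. The isoform leading in the mean of 2 libraries also led, alone or tied, in the held-out library in 91.2%, 91.4% and 92.0% of genes when Controls 1, 2 and 3 were held out. With identical values summed, the share was 99.9% ± 0.093 of genes with a leading share of at least 90%, 92.2% ± 0.53 at 50% to 90%, and 69.1% ± 3.56 under 50%.

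In 1599 genes the 2 leading isoforms differed by more than 25% in at least 1 library and the second held at least 10%. This selection was made after values were seen. The 2 isoforms encoded the same protein in 842 of these genes (52.7%), had 5′ ends more than 50 nt apart in 679 (42.5%) and 3′ ends more than 50 nt apart in 660 (41.3%). Where the coding sequence and the introns were shared and the 3′ ends were apart, the longer form led in 112 of 269 genes (41.6%).

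Alternative 3′ ends gave clear splits among abundant genes. *CG4716* (chromosome 2R, 13256587 to 13257446), a gene named only by its number, had 2 main isoforms that differ only in the 3′ end, with RA (3′UTR of 24 nt) at 63.5%, 64.6% and 64.3% and RC (92 nt) at 36.2%, 35.1% and 35.4%. The gene's level was lowest in Control 1 by a wide margin, and the shares were nearly the same in the 3 libraries. *ATPsynC* (chromosome 3R, 31216145 to 31219630), encoding a membrane subunit of ATP synthase, was led by RG with a 3′UTR of 244 nt at 65.5% ± 1.56, and 4 isoforms with a 3′UTR of 869 nt held 8.24% to 9.18% each. The cytoplasmic actin gene *Act5C* (chromosome X, 5900861 to 5905399) was led by RD (636 nt) at 62.3% ± 2.71, followed by RA (345 nt) at 25.4% ± 0.24 and RC (960 nt) at 12.3%. Actin genes are close paralogs and part of these values could come from reads of another. *Yp2*-RA held 86.2%, 91.7% and 91.7%, and the form with a 3′UTR of 236 nt instead of 171 nt was highest in Control 1 at 13.8%.

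When isoforms whose annotated 3′ ends lie within 50 nt were summed, 1782 genes had at least 2 ends, and a single end held a median of 88.9% ± 0.28 of the gene's TPM. The leading end was the most distal in 791 genes (44.4%) and the most proximal in 855 (48.0%). Long 3′UTRs marked the neuronal lists. The median 3′UTR, weighted by isoform level, was 3126 nt for the 7 pan-neuronal markers at 20 TPM or more and 2539 nt for 20 genes of synaptic vesicles and active zones, beside 233 nt over all 5021 genes, 96.6 nt for ribosomal proteins and 100.5 nt for the nuclear respiratory chain. *nSyb* (chromosome 3L, 1630348 to 1637752) was led by RG with a 3′UTR of 1919 nt at 86.3%, 85.9% and 84.7%, and RE with 355 nt held 10.4% ± 2.54. The calcium sensor gene *Syt1* was led by RI, with a 3′UTR of 4011 nt, at 58.1%, 47.1% and 38.5%. These 3 values fall in the order of library depth, and the share of the 3 forms with 2126 nt, identical in value, was 12.96%, 16.1% and 20.5% each, so that together they held 49.6% against 47.9% for RI.

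Other pairs shared a protein and differed mainly in the 5′UTR. By the paper's metrics, most reads did not cover a full-length reference transcript. Shares of such pairs thus rest in part on how partial reads were assigned, and a small SD does not show that the forms were resolved. *RpL8*-RA held 72.1% ± 2.03 and RB, with a 5′UTR of 235 nt instead of 60 nt between the same ends, 27.9%. *RpL36* was led by RB, with a 5′UTR of 94 nt, at 63.7%, 61.4% and 56.2%. *COX4*, a nuclear cytochrome c oxidase gene, was led by RA at 63.7% ± 3.37, and *ND-MLRQ* of complex I by RB at 81.7% ± 0.45. *Ggamma30A*, the G protein gamma subunit gene of the eye at 1391 TPM, had RF (5′UTR of 595 nt) at 70.4% ± 1.90 and RB (163 nt) at 18.0% ± 2.89. Its form RH differed at the 3′ end, with a 3′UTR of 4360 nt, and held 11.3% ± 1.58.

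Other pairs encoded different proteins, and the limit from partial reads holds here too where the forms differ near the 5′ end. Of the 3343 genes, 1734 have at least 2 annotated coding sequences, and in these the leading coding sequence held a median of 66.3% ± 0.99. Among the 1599 genes above, the most abundant with such a split was *RpS21* at 2365 TPM, where RA held 84.9% ± 1.11 and RE 13.7% ± 1.11. *ninaC*, which encodes a myosin with a kinase domain in photoreceptors (chromosome 2L, 7377702 to 7384344), was split between RD, with a coding sequence of 3405 nt, at 54.6%, 66.5% and 66.7%, and RB, with 4503 nt, at 39.0%, 28.4% and 28.7%. Control 1 was apart from the other libraries. The saposin precursor gene *Sap-r* had RA at 63.6% ± 2.36 and RB, with a coding sequence of 2628 nt instead of 2859 nt, at 36.4%. The pyruvate kinase gene *PyK* had RB at 77.7%, 73.2% and 80.0%, and RA, with another first exon and a coding sequence of 1599 nt instead of 1536 nt, at the remainder. *Tret1-1*-RB held 79.0%, 79.6% and 81.1%, and the RA form, with 2571 nt instead of 1467 nt of coding sequence, 20.1% ± 1.08. The malic enzyme gene *Men* used 3 forms with 3 coding sequences at 43.2%, 34.1% and 22.6%. *Oda*, encoding the ornithine decarboxylase antizyme, was led by RA at 88.6% ± 0.61.

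**Figure D5:**
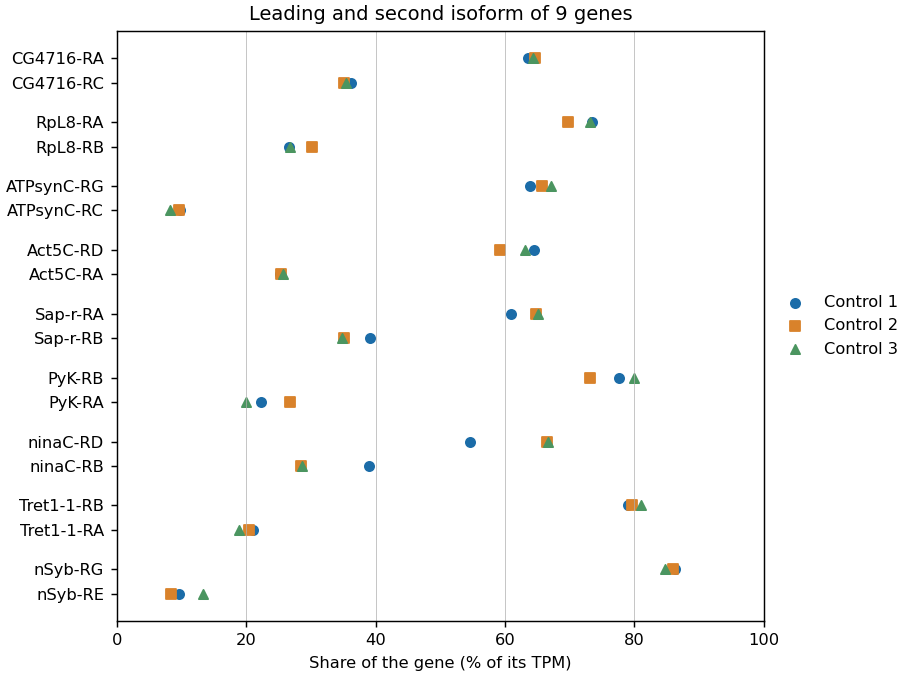
Share of the gene's TPM (percent) held by the leading and the second isoform of 9 genes, with a point for each control library. Shares of *CG4716*-RA lie between 63.5% and 64.6% in the 3 libraries, and *ninaC*-RD is at 54.6% in Control 1 and above 66% in the others.

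The genes with the widest spread over isoforms included genes of muscle, cytoskeleton, synapse and chromatin. By effective number the leading 10 were *mod(mdg4)*, *Mhc*, *Svil*, *cpx*, *Ank2*, *mtd*, *CAP*, *mfas*, *Lmpt* and *Mical*. *mod(mdg4)*, a chromatin protein gene of chromosome 3R known for trans-splicing, had an effective number of 18.5 among 31 listed isoforms at 92.2, 77.6 and 67.2 TPM, and a single isoform passed the floor in all libraries. The muscle myosin heavy chain gene *Mhc* had 17.8 among 21, with 11 detected, and RF, its leading isoform, held 9.19%, 10.7% and 4.39%. *cpx* had 15.7 among 21. Its leading isoform held 8.59%, one 3′ end held 97.5%, and the leading of 10 coding sequences held 34.5%. The ankyrin gene *Ank2* had 14.5 among 20, all with different coding sequences, and the giant form RAA of 38548 nt was listed at 8.25, 29.5 and 21.8 TPM. The longest isoform that the paper reports as sequenced in each control library is shorter than this form. The level of RAA thus rests on partial reads. At these levels a few reads decide an isoform's rank. For *Svil* and *Mical* no isoform passed the floor in all libraries.

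Of 30 genes chosen as known multi-isoform genes of nervous system and muscle, 22 reached 20 TPM, with a mean of 14.4 listed and 3.27 detected isoforms, beside 2.90 and 1.61 over all genes. Their median leading share with identical values summed was 49.5%, against 78.4% over all genes with several isoforms, and 12 of the 22 stayed under 50%. The genes were chosen for having many isoforms, and the median over all 172 genes with 10 or more listed isoforms was 39.5%. The glutamate transporter gene *Eaat1* (FBgn0026439, chromosome 2L) was among those with equal values. Its 4 leading isoforms held 24.6% each and 98.6% together, share both ends and differ inside. The potassium channel gene *slo* was at 36.2, 21.1 and 15.7 TPM, and its RS form held 87.9%, 81.2% and 44.4%, on few reads. The kinase gene *sgg* was led by RR at 53.8%, 66.7% and 52.2%, with RF, of another start and end, at 28.3% ± 6.09. *CaMKII* on chromosome 4 had 7 of 12 isoforms detected, and 3 isoforms of identical value led with 16.1% each. The median leading share with identical values summed was 74.2% in 68 ribosomal protein genes, 66.1% in 53 nuclear respiratory chain genes, 71.4% in 19 synaptic genes and 59.1% in 14 muscle genes.

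The leading isoform was often not the one the annotation puts first. The transcript marked as canonical in the Ensembl annotation led in 39.7% of the 3343 genes, and in 41.4% of the 2493 genes whose 2 leading isoforms differed by more than 25%. The longest listed isoform led in 44.0% and the shortest in 29.9%. In the 664 genes with identical leading values the leader is set by the order of transcript IDs, and the canonical transcript led in 31.6%. Any fixed isoform leads in part of the genes, above all where few are listed. That share was not computed, so these percentages do not show a preference for or against a kind of isoform. Across genes, the leading share with identical values summed fell with the number of listed isoforms (Spearman's rho = -0.52, n = 3343 genes). Under the same rule it was nearly unrelated to gene level (rho = -0.088). The relation to level depended on the rule. At 1000 TPM or more the median was 51.1% with isoforms separate, below the 58.8% to 61.7% of the lower classes. With values within 5% summed it was 97.2%, above their 75.6% to 80.0%. These genes share the same 3 libraries and are not independent replicates. The share with identical values summed was 94.2% in 1435 genes with 2 listed isoforms, 79.5% in 674 genes with 3, and 39.5% in 172 genes with 10 or more.

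Equal values also crossed gene borders. In all, 50 isoforms averaging 50 TPM or more, from 44 genes, had the same TPM in all 3 libraries as an isoform of another gene. *Met75Ca* and *Met75Cb* were such a pair, and so were *IMPPP* and *CG33470*. Values rise in steps of a single read, so isoforms of different genes can also have equal values by coincidence. Only the equality of isoform values was checked. Whether these genes share reads was not tested.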

How the data were processed

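Per the study's methods, the authors kept reads above a quality limit, aligned them to the FlyBase release 6 transcriptome with minimap2, allowing secondary alignments, and estimated isoform levels with NanoCount, which does not divide by length. The authors deposited the TPM values of each library in a table that also holds 6 columns of their comparison with tau flies (mean level, fold change, its error, test statistic and p-values). These columns were not used. The columns of Controls 1, 2 and 3 were matched to their libraries by name.

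TPM were summed over the listed isoforms of a gene, and no length correction was made. The TPM worth of 1 read was read from the steps of the values in each library, and 3 reads were set as the floor. An isoform was called detected at or above the floor in all 3 libraries. Shares were computed per library and averaged. Exon, coding sequence and UTR positions were taken from Ensembl release 115 (BDGP6.54), the Release 6 assembly that the processing notes name dm6. It held 30718 of the 30738 isoforms and is a later release than the authors used. With a single group, the libraries give a spread and no p-value, and the study's methods give the libraries as biological replicates. Python 3.11.15, pandas 2.3.3, numpy 2.4.6 and scipy 1.17.1 were used, and the calculations were tested on simulated data.

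The genes named are the 20 genes and 20 isoforms with the highest mean, the 10 genes with the largest effective number, the 10 most abundant with a leading share under 50%, the 10 most abundant with several isoforms and a leading share of at least 99%, the 5 most abundant whose leading isoform differs between libraries, the 2 most abundant of each list, and the known multi-isoform genes at 20 TPM or more. A gene that the rule names is not reported here. Other genes were named after their values were seen. The members and lists were chosen with earlier results of these data known. Alternatives to the threshold, the detection rule and the unit of counting were tried. No sequence is printed.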

Additional observations from a re-analysis of the deposited data

How the results depend on the processing

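A threshold of 10 TPM gave a median leading share of 60.6%, an effective number of 1.997 and the same leader in a held-out library for 90.8% of genes. A threshold of 50 TPM left 2386 genes, with 2 isoforms detected in the median gene, a leading share of 60.8%, 25.3% of genes at 90% or more, an effective number of 1.997 and the same leader for 93.0256%. The median number detected was also 2 when an isoform had only to be above 0 or to hold 5% of its gene. Identical isoforms taken as 1 gave 78.4%, with 37.2% of genes at 90% or more, 14.8% under 50% and an effective number of 1.71. Leaving out isoforms under the floor gave 69.8%, 39.9%, 15.8% and 1.83 for the same measures. Chosen after seeing the data, isoforms within 5% taken as 1 gave 79.4%, 37.96%, 14.1% and 1.69, and within 25% gave 83.2%, 41.4%, 11.5% and 1.60. Taking the coding sequence or the 3′ end as the unit gave median shares of 99.9998% and 100% over all 3343 genes, many of which have a single one. Leaving out a library in turn moved the median share between 59.5% and 60.3% and the genes at 90% or more between 23.3% and 24.2%. Leaving out the mitochondrially encoded genes gave 15.4% for the top 20 genes, 13.3% for the top 20 isoforms, and list shares of 23.4% for ribosomal proteins, 3.04% for the nuclear respiratory chain, 0.576% for glycolysis, 2.10% for translation factors, 4.84% for phototransduction, 0.886% for odorant-binding proteins and 0.160% for cuticle, since the total is smaller. Of 130 values under alternatives, 90 kept within the spread between libraries or, for the number of genes, within 1.5 times the count. The number of genes was 7222 at a threshold of 10 TPM. Many of the 130 values came from leaving out a library. For shares of TPM, dropping a library leaves the mean within the SD of the libraries whatever the data. The count of 90 is therefore not a measure of robustness. Summing equal isoforms or leaving out those under the floor moved the leading share and the effective number beyond the spread between libraries. No paired analysis was possible because there is 1 group and no test. Depth limits the detection of isoforms of genes near 20 TPM.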
